A study of Homo sapiens with 18 samples.

Results

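Mitochondrial ribosomal protein genes were taken as the genes listed under MRPL or MRPS, a number and at most one letter A, B or C, whose mean reached 10 normalized counts in both deposited tables. Of 26485 genes listed, 77 had such a name and 76 were kept: 50 of the large subunit, 25 of the small subunit, and MRPS36. MRPS24 was left out, with means of 4.06 among the siRNA libraries and 5.25 among the C16 libraries, and the member nearest to the limit was MRPL54, with 23.6 and 11.6. In the study, poly(A) RNA was sequenced from PANC-1 cells, an established human pancreatic ductal carcinoma line labelled epithelial, to find which transcripts move when protein kinase R (PKR, encoded by EIF2AK2) is lowered or inhibited. One run held cells 72 h after transfection with a control siRNA, with PKR siRNA 1 or with PKR siRNA 2, 3 libraries each. The other held cells treated for 72 h with the solvent DMSO, with 400 nM C16 or with 800 nM C16, a small-molecule inhibitor of PKR, again with 3 libraries each. All 6 groups were the same line, and the siRNA groups were transfected cells whereas the C16 groups were not labelled as transfected. The authors normalized the runs separately, each in its own table, so kind of treatment and run cannot be told apart and every comparison was made within a table. The values are normalized counts, that is, reads on a gene divided by a factor per library, and fold changes are on the log2 scale of these counts plus 1.

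Mitochondria carry their own ribosome, which is built on rRNAs transcribed from mitochondrial DNA but takes all of its proteins from nuclear genes, so each protein is made in the cytosol and imported. It translates only the few mRNAs of mitochondrial DNA, which encode core subunits of the respiratory chain and of ATP synthase. Many of its proteins descend from those of bacterial ribosomes, and others have no bacterial counterpart and cover the surface, the central protuberance, the mRNA entry and the exit tunnel.

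Reads on genes numbered 1512940 to 1873906 per siRNA library and 894145 to 1474308 per C16 library, so counting error was larger in the C16 table. EIF2AK2 stood at 97.4 ± 5.21 normalized counts (SD, n = 3) in the controls, at 11.1 ± 2.19 after PKR siRNA 1 and at 8.65 ± 0.726 after PKR siRNA 2. The siRNA labels and the level of the targeted gene went together in all 9 libraries. With C16 its level was 49.9 ± 1.38 at 800 nM against 49.8 ± 4.2 in DMSO (SD, n = 3). All 7 epithelial markers were present in the siRNA table and 6 of 7 reached a mean of 10 in the C16 table, whereas the 4 pancreatic acinar and the 4 endothelial markers summed to at most 2.14 in any library. Of the 5 fibroblast markers only COL1A1 and of the 5 leukocyte markers only CD68 reached a mean of 10, and COL1A2, DCN, PDGFRA, PTPRC, CD3E and MS4A1 were at 0 in all libraries. The fibroblast sum was 82.1 to 108.5, 21.8 to 28.9 and 106.4 to 114.7 in the control, PKR siRNA 1 and PKR siRNA 2 libraries, and the leukocyte sum 147.2 to 169.4, 209.9 to 275.7 and 194.1 to 205.9. In DMSO, 400 nM and 800 nM C16 the fibroblast sum was 130.2 to 161.4, 102.6 to 159.5 and 58.2 to 92.8, and the leukocyte sum 52.4 to 62.2, 142.5 to 173.0 and 103.9 to 126.7. The summed epithelial markers moved with the groups, with 5619.8 to 5691.6 in the control siRNA libraries, 3250.1 to 3468.4 after PKR siRNA 1 and 9882.0 to 10509.7 after PKR siRNA 2, and 7335.8 to 7731.1, 6169.5 to 6676.8 and 5235.9 to 5777.5 in DMSO, 400 nM and 800 nM C16, and the part of these marker shifts in the results was not tested. Values are relative levels after scaling by a factor per library, so a change in the number of cells and a change in RNA per cell cannot be told apart. No source states that the 3 libraries of a group were separate cultures, and p-values then measure only the spread between libraries.

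An siRNA can also pair with other mRNAs through its seed, guide positions 2 to 8, most often in a 3′ UTR. The sites are shown because MRPL42 stood far below its controls after PKR siRNA 2, and the members with a match were named after their values were seen. Each line runs 5′ to 3′ with the 7 bases that pair with the seed in capitals. The target sites of both siRNAs in EIF2AK2 were as follows.

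PKR siRNA 1 target: gcagatacatcAGAGATAa
PKR siRNA 2 target: gatcttaagccAAGTAATa

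Matches to the PKR siRNA 2 seed were found in the 3′ UTRs of 5 of the 74 members that had a 3′ UTR of at least 50 bases in GENCODE release 44 (hg38). MRPL42 and MRPL19 held 2 each, and the other 3 held 1 each.

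MRPL42, chr12:93501299-93501324, plus strand: aatatatagtaAAGTAATaatgataa
MRPL42, chr12:93501352-93501377, plus strand: acttttatataAAGTAATtctggatt
MRPL19, chr2:75657466-75657491, plus strand: ctactgtcaacAAGTAATagatatcc
MRPL19, chr2:75659006-75659031, plus strand: atttgcatttaAAGTAATtaaggaag
MRPL2, chr6:43054056-43054081, minus strand: aattcccttacAAGTAATggagccgg
MRPL22, chr5:154968889-154968914, plus strand: tacgttacaaaAAGTAATaatagcta
MRPL35, chr2:86211901-86211926, plus strand: taagggggagaAAGTAATctcagttg

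Counted over the whole site of 19 bases, the first MRPL42 match paired with the guide at 13 positions and the second at 11, the MRPL19 matches at 11 and 9, and the matches of MRPL2, MRPL22 and MRPL35 at 10, 12 and 8. The seed of PKR siRNA 1 was matched once each in the 3′ UTRs of MRPL17 and MRPL35. A match is a description of letters and does not show that the siRNA acted there.

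Levels per kb of exon spanned a wide range among the members. The median was 67.0 normalized counts per kb for the siRNA libraries and 46.6 for the C16 libraries. MRPS12, of the decoding site of the small subunit, was highest in both tables, with 350.4 per kb in the siRNA and 236 in the C16 libraries. Next in the siRNA libraries were MRPL12 of the stalk (234) and MRPL51 (218), and next in the C16 libraries were MRPL41 (170.2) and MRPS34 (153), with MRPL51 at 140.5 and MRPL12 at 120.0. The 3 lowest in both tables were MRPL57 (11.2 and 6.77 per kb), MRPL19 (12.3 and 10) and MRPS14 (15 and 10.8). The ribosome needs most of these proteins in equal numbers, but mRNA levels per kb differed by more than an order of magnitude between members. Length per gene was the exon length in the authors' tables.

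With PKR siRNA 1, more members rose than fell: 23 of 76 rose and 6 fell at a limma adjusted p under 0.05, where 21.1% and 23.9% of the 10593 genes tested did. The rise was led by MRPL24, which lines the rim of the exit tunnel, MRPS22, a protein of the small subunit without a bacterial counterpart, MRPL4 of the tunnel wall, MRPL23 at the tunnel exit and MRPS11 of the small subunit. The fall was led by MRPL44 near the exit tunnel and MRPL40 of the central protuberance, both mitochondria-specific. At a fold change over 1.5 in addition, 5 members were higher and 2 lower, against 8.53% and 12.6% of all genes, or 6.58% and 2.63% of the members. The median log2 fold change of the members was 0.16 beside -0.01 over all genes tested, and it was 0.11 for the large and 0.28 for the small subunit. All 3 treated libraries lay above all 3 controls for 30 members and below them for 7, where 24.5% and 27.2% of all genes did.

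MRPL24 had normalized counts of 57.5, 61.2 and 83.4 in the controls and 113, 136 and 126 after PKR siRNA 1, a log2 fold change of 0.90 (SE 0.13, limma adjusted p = 2.95e-08). MRPS22 had 72.9, 59.1 and 70.2 against 118, 112 and 97.5, a log2 fold change of 0.69 (SE 0.12, limma adjusted p = 3.37e-06). In both genes every library transfected with PKR siRNA 1 was above every control library. MRPL4 was at 72.9 ± 6.68 in the controls and 116 ± 13.6 after PKR siRNA 1 (SD, n = 3 each; log2 fold change 0.66, limma adjusted p = 1.21e-05). MRPS11 was at 70.6 ± 1.98 and 109.9 ± 8.92 (SD, n = 3 each; log2 fold change 0.63, limma adjusted p = 5.95e-05), with no overlap between the groups. MRPL23 rested on few counts, 22.6, 20.4 and 19 in the controls and 35.5, 33.6 and 29.9 after PKR siRNA 1 (log2 fold change 0.65, limma adjusted p = 0.0232). The MRPL23 call after PKR siRNA 1 was lost without control siRNA library 3 (0.59), PKR siRNA 1 library 1 (0.60) or PKR siRNA 1 library 2 (0.64). With no filter on low values (0.65) or DESeq2 (0.69) the call was lost too. MRPL44 went from 60.6, 62.3 and 77.7 to 36.7, 44.4 and 40.5 normalized counts, a log2 fold change of -0.70 (SE 0.16, limma adjusted p = 0.000236). MRPL40 went from 59.6, 66.6 and 60.7 to 41.1, 47.2 and 35.7, a log2 fold change of -0.59 (SE 0.16, limma adjusted p = 0.00192). In all 3 libraries of this group both were below every control library. For single genes an exact permutation test over 3 against 3 libraries, two-sided, gives p = 0.1 wherever the groups do not overlap, the smallest it can reach.

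Fold changes after PKR siRNA 1 also followed gene length over all genes tested. Over 5 length classes of equal size, from the shortest to the longest genes, the median log2 fold changes were 0.07, 0.05, -0.01, -0.05 and -0.10, and 57 of the 76 members were in the shortest class, with a median exon length of 1325 bases beside 3481 for all genes tested. With this trend removed the members' median log2 fold change was 0.08 in place of 0.16, with 17 members higher and 7 lower, and with the fold threshold added 2 higher and 4 lower. Of the 10593 genes tested, 2230 were then higher and 2510 lower, and with the fold threshold added 900 higher and 1327 lower. The share of members that rose was thus near that of all genes, and the share that fell was below it. Without PKR siRNA 1 library 2, 16 members were higher, and 3 of them by over 1.5-fold. A left-out library, here and below, leaves fewer libraries for every gene. Counts over all genes in those fits are not given, so a lower count is not particular to the members.

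**Figure D1:**
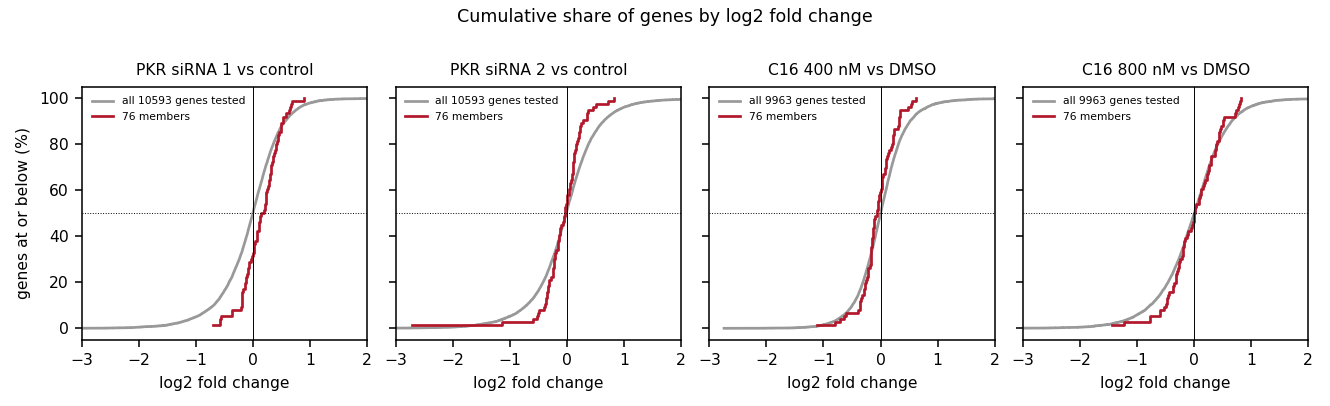
Cumulative percentage of genes (y axis) at or below a log2 fold change (x axis) in each treatment against its control, for all genes tested (grey) and for the 76 members (red). The dotted line marks the median; after PKR siRNA 1 the red curve lies to the right, with a median of 0.16, and in the other panels both curves cross near 0, apart from single members far to the left.

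With PKR siRNA 2, 9 members rose and 16 fell at a limma adjusted p under 0.05, or 11.8% and 21.1%, where 22.1% and 25.2% of all genes tested did. Both shares were below those of all genes, and the share that rose was further below. MRPL42, a mitochondria-specific protein of the large subunit, fell to 0.15 times its control level, and MRPL33, a small homologue of a bacterial protein, fell as well. MRPL49 of the large subunit and MRPS22 of the small subunit rose. With the fold threshold added, 2 members were higher and 3 lower, against 10.8% and 12.8% of all genes. The median log2 fold change of the members was -0.03 beside -0.01 over all genes tested. All 3 libraries lay above the controls for 10 members and below them for 16, where 25.9% and 28.4% of all genes did. Among the 30 large-subunit members classed as homologues of bacterial proteins 11 fell and 2 rose. Among the 20 of that subunit classed as mitochondria-specific, MRPS18A included, 1 fell and 3 rose, a difference that was not tested. Both siRNA comparisons share the control siRNA libraries.

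MRPL42, at chr12:93467490-93503772 (plus strand), had normalized counts of 125, 95.6 and 138 in the controls, 130.0, 122 and 108 after PKR siRNA 1 and 14.9, 18.2 and 18.8 after PKR siRNA 2. The 3 libraries transfected with PKR siRNA 2 stood far below the other 6, and those after PKR siRNA 1 overlapped the controls. The log2 fold change was -2.71 (SE 0.15, limma adjusted p = 1.02e-26) after PKR siRNA 2 and 0.02 (SE 0.15, limma adjusted p = 0.94) after PKR siRNA 1. Leaving out any 1 library kept the PKR siRNA 2 value between -2.86 and -2.60. Its 3′ UTR holds both seed matches printed above. MRPL19, with 2 matches as well, was at 120.1, 113 and 94.8 in the controls and 79.6, 104 and 69.6 after PKR siRNA 2, a log2 fold change of -0.38 (SE 0.13, limma adjusted p = 0.0108), and the groups overlapped. The MRPL19 call after PKR siRNA 2 was lost without control siRNA library 1 (-0.31) or PKR siRNA 2 library 3 (-0.25). With DESeq2 (-0.36) the call was lost too. The members with 1 match, MRPL2, MRPL22 and MRPL35, had log2 fold changes of 0.24, 0.06 and 0.08, and none passed the test. Over all genes tested with a 3′ UTR, 40.6% of the 1322 with a match to the PKR siRNA 2 seed were lower after PKR siRNA 2, beside 23.7% of the 8238 without one, and after PKR siRNA 1 the same genes were lower in 28.4% and 23.9%. Whether the matches take part in the fall of MRPL42 was not tested. No other gene's exons share bases with MRPL42 in the authors' gene list.

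MRPL33, of the large subunit, had 69.8, 66.6 and 79.6 normalized counts in the controls and 36.8, 34.3 and 26.3 after PKR siRNA 2, a log2 fold change of -1.13 (SE 0.16, limma adjusted p = 1.09e-08). Every library transfected with PKR siRNA 2 was below every control, and no seed match was found in its 3′ UTR. MRPS21, a homologue of a bacterial small-subunit protein, went from 148, 135 and 143 to 93.5, 94.4 and 93.1, a log2 fold change of -0.60 (SE 0.11, limma adjusted p = 1.85e-06), with no overlap. MRPL49 rose from 148, 148 and 129 to 261, 271 and 228, a log2 fold change of 0.83 (SE 0.10, limma adjusted p = 1.84e-11), and all treated libraries were above the controls. Of its exon bases 5.0% lie opposite FAU and SYVN1, whose log2 fold changes after PKR siRNA 2 were -0.05 and -0.03 and did not pass the test. MRPS22 was at 113, 105 and 117 after PKR siRNA 2 against 72.9, 59.1 and 70.2 in the controls, a log2 fold change of 0.73 (SE 0.12, limma adjusted p = 9.13e-07). The difference of MRPS22 between the siRNAs was 0.04 on the log2 scale (SE 0.12). The counts of members that passed changed when 1 library was left out: 8 fell without control siRNA library 1, and 5 rose without control siRNA library 2.

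**Figure D2:**
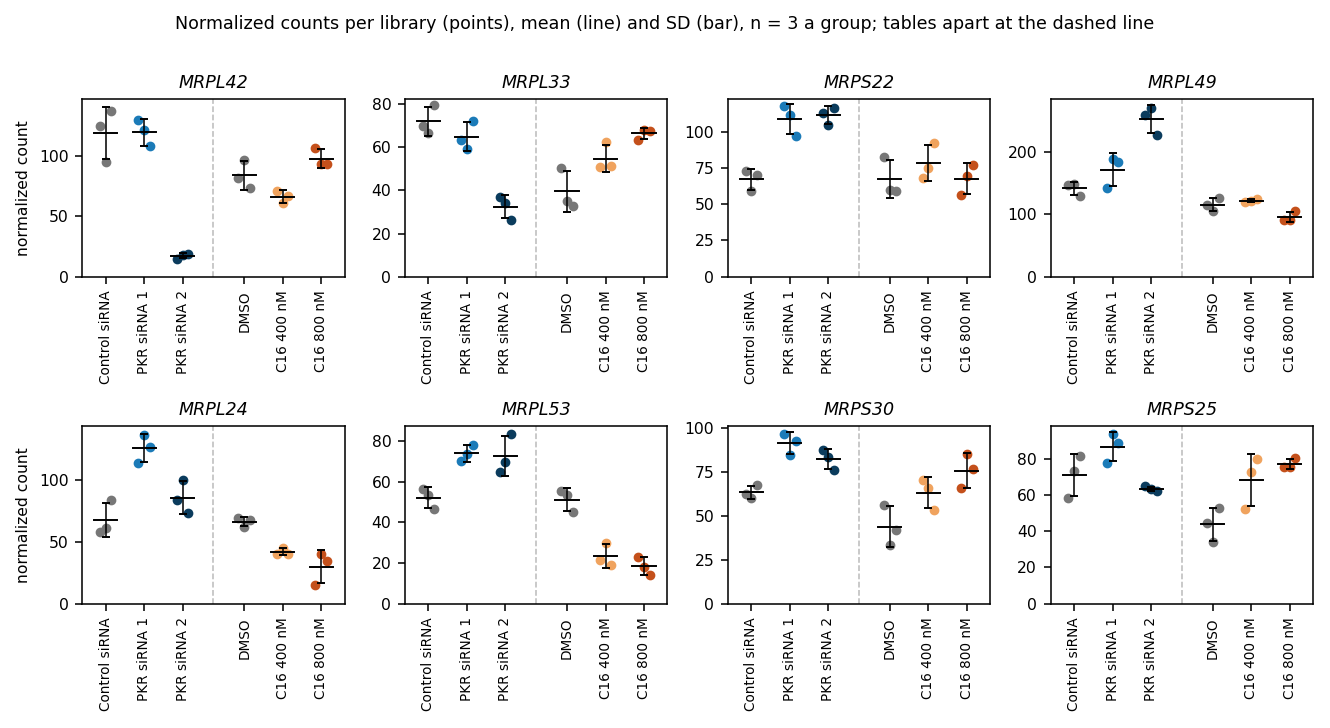
Normalized counts (y axis, from 0) of 8 members in the 6 groups (x axis), one point per library with the mean and SD of 3; the siRNA and the C16 table, left and right of the dashed line, were normalized apart. In MRPL42 the PKR siRNA 2 libraries, at 14.9, 18.2 and 18.8, lie far below the control libraries, at 125, 95.6 and 138, and in MRPL24 and MRPL53 the C16 libraries lie below those in DMSO.

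Comparing the siRNAs directly, 28 members were lower and 10 higher after PKR siRNA 2 than after PKR siRNA 1 at a limma adjusted p under 0.05, where 29.3% and 27.7% of all genes tested were. With the fold threshold added, 12 were lower and 3 higher, beside 15.3% and 16.4% of all genes. The median log2 difference of the members was -0.18 and that of all genes -0.01. This comparison too followed gene length. From the shortest to the longest class the median log2 differences were -0.10, -0.05, -0.03, 0.03 and 0.10, with 57 members in the shortest. With this trend removed the members' median was closer to that of all genes, as given in the last section. The largest differences downward, after MRPL42 (-2.72), were those of MRPL33 (-0.98), MRPL36 (-0.94), MRPL23 (-0.93), MRPS21 (-0.89), MRPL55 (-0.88), MRPS11 (-0.87) and MRPL15 (-0.82). Upward, MRPS18B (0.89), MRPS6 (0.86) and MRPL16 (0.66) passed both thresholds. Without PKR siRNA 2 library 3, 6 members were higher.

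In 6 members the siRNAs moved the level in opposite directions, each past the test. MRPL15, MRPL36, MRPS21 and MRPS23, 5.26% of the members, were higher after PKR siRNA 1 and lower after PKR siRNA 2, as 3.96% of all genes tested were. MRPL15, of the large subunit, had normalized counts of 160.2, 158 and 149.8 in the controls, 203, 213 and 172 after PKR siRNA 1 and 119, 106 and 105 after PKR siRNA 2, log2 fold changes of 0.32 and -0.50 (limma adjusted p = 0.0066 and 2.75e-05). The 3 groups of MRPL15 did not overlap. MRPS23, mitochondria-specific, had 132, 139 and 149.8 in the controls, 197, 156 and 175 after PKR siRNA 1 and 103, 102 and 112 after PKR siRNA 2, log2 fold changes of 0.32 and -0.40 (limma adjusted p = 0.00966 and 0.000918), again without overlap. MRPL36 had 66.7, 61.2 and 45.5 in the controls, 85.5, 76.2 and 69.5 after PKR siRNA 1 and 29.8, 42.9 and 48 after PKR siRNA 2, with log2 fold changes of 0.42 and -0.52 (limma adjusted p = 0.0321 and 0.007), and its PKR siRNA 2 libraries overlapped the controls. MRPS21 rose after PKR siRNA 1 by 0.30 on the log2 scale (limma adjusted p = 0.0158) and fell after PKR siRNA 2 as given above. The MRPL15 call after PKR siRNA 1 was lost without PKR siRNA 1 library 2 (0.26). The MRPS23 call after PKR siRNA 1 was lost without control siRNA library 1 (0.28) or PKR siRNA 1 library 1 (0.24). The MRPS21 call after PKR siRNA 1 was lost without control siRNA library 2 (0.26) or PKR siRNA 1 library 2 (0.21). With DESeq2 (0.32) or the length trend removed (0.22) the call was lost too. The MRPL36 call after PKR siRNA 1 was lost without control siRNA library 3 (0.26), PKR siRNA 1 library 1 (0.34) or PKR siRNA 1 library 2 (0.43). With no filter on low values (0.42), DESeq2 (0.43) or the length trend removed (0.29) the call was lost too. The MRPL36 call after PKR siRNA 2 was lost without control siRNA library 1 (-0.41) or PKR siRNA 2 library 1 (-0.33). With DESeq2 (-0.50) the call was lost too.

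MRPS18B and MRPS6, 2.63% of the members, were lower after PKR siRNA 1 and higher after PKR siRNA 2, as 4.61% of all genes tested were. MRPS18B, of the small subunit, had 87.3, 89.2 and 84.4 in the controls, 58.9, 77.1 and 65.6 after PKR siRNA 1 and 120.4, 126 and 128 after PKR siRNA 2, log2 fold changes of -0.38 and 0.51 (limma adjusted p = 0.0109 and 0.000433). The 3 groups of MRPS18B did not overlap. The MRPS18B call after PKR siRNA 1 was lost without PKR siRNA 1 library 1 (-0.29). With DESeq2 (-0.35) or the length trend removed (-0.28) the call was lost too. MRPS6, a homologue of a bacterial small-subunit protein, had 158, 119 and 129 in the controls, 94.4, 83.4 and 90.7 after PKR siRNA 1 and 168, 156 and 166 after PKR siRNA 2, log2 fold changes of -0.58 and 0.28 (limma adjusted p = 7.8e-06 and 0.0335). The MRPS6 call after PKR siRNA 2 was lost without control siRNA library 2 (0.19), control siRNA library 3 (0.25), PKR siRNA 2 library 1 (0.25) or PKR siRNA 2 library 3 (0.26). With DESeq2 (0.29) the call was lost too. MRPS6 shares 22.5% of its exon bases with SLC5A3, a myo-inositol transporter gene on the same strand, so its reads cannot be fully told apart from those of SLC5A3. SLC5A3 went from a mean of 285.4 in the controls to 90 after PKR siRNA 1 and 259.5 after PKR siRNA 2, log2 fold changes of -1.65 (limma adjusted p = 1.4e-26) and -0.13, and MRPS6 is therefore reported as uncertain.

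With 800 nM C16, members moved in both directions: 16 rose and 9 fell at a limma adjusted p under 0.05, where 22.3% and 22.6% of the 9963 genes tested did. With the fold threshold added, 6 rose and 4 fell, beside 11.6% and 14.1% of all genes, or 7.89% and 5.26% of the members. MRPL53 and MRPL24 of the large subunit fell most, followed by MRPL12, the stalk protein that also binds mitochondrial RNA polymerase, and MRPL28. MRPS25 and MRPS2 of the small subunit and MRPS30, MRPL14, MRPL33 and MRPL21 of the large subunit rose. The members' median log2 fold change was 0.00, as over all genes (0.00). All 3 libraries lay above DMSO for 23 members and below it for 18, where 26.1% and 25.7% of all genes did. By subunit, 9 of 50 large-subunit members rose and 7 fell, and 7 of 25 small-subunit members rose and 2 fell.

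MRPL53, a mitochondria-specific protein at chr2:74471958-74472815 (minus strand), had normalized counts of 55.4, 53.3 and 44.9 in DMSO, 21.3, 30 and 19.1 at 400 nM and 23.2, 18.3 and 14.3 at 800 nM. Every C16 library was below every DMSO library, and the doses overlapped. Its log2 fold change was -1.43 (SE 0.23, limma adjusted p = 4.03e-07) at 800 nM and -1.11 (SE 0.23, limma adjusted p = 0.000108) at 400 nM. MRPL24 at chr1:156737302-156741131 (minus strand) had 69, 61.9 and 67.8 in DMSO, 40.4, 45 and 40.4 at 400 nM and 15.1, 40.2 and 34.4 at 800 nM. Again no C16 library reached the DMSO libraries, and 800 nM library 1 was well below the others. The log2 fold change of MRPL24 was -1.23 (SE 0.21, limma adjusted p = 1.6e-06) at 800 nM and -0.65 (SE 0.21, limma adjusted p = 0.0145) at 400 nM. Without C16 800 nM library 1 (-0.81) the MRPL24 value at 800 nM moved by over 1.5 times. MRPL12 had 147, 171 and 144 in DMSO, 111, 128 and 126 at 400 nM and 83.7, 84.1 and 102 at 800 nM, groups in order of dose without overlap. The MRPL12 log2 fold change was -0.77 (SE 0.12, limma adjusted p = 1.47e-07) at 800 nM and -0.34 at 400 nM (limma adjusted p = 0.0231). The MRPL12 call at 400 nM was lost without DMSO library 2 (-0.26) or C16 400 nM library 1 (-0.27). With DESeq2 (-0.36) or the length trend removed (-0.24) the call was lost too. MRPL28 went from 131 ± 8.58 to 86.8 ± 5.76 at 800 nM (SD, n = 3 each; log2 fold change -0.59, limma adjusted p = 5.22e-05).

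MRPS25, a mitochondria-specific protein of the small subunit, had 44.7, 34.3 and 52.5 normalized counts in DMSO, 52.1, 72.6 and 79.8 at 400 nM and 75.6, 75.6 and 80.2 at 800 nM, with log2 fold changes of 0.82 (limma adjusted p = 2.91e-05) at 800 nM and 0.62 (limma adjusted p = 0.00235) at 400 nM. The 400 nM libraries of MRPS25 overlapped DMSO and the 800 nM libraries did not. NR2C2, which lies opposite 16.8% of the MRPS25 exon bases, had a log2 fold change of 0.12 at 800 nM (limma adjusted p = 0.548). MRPL14, which faces the small subunit, went from 85.5, 65.7 and 71.6 in DMSO to 143, 130.4 and 113 at 800 nM, a log2 fold change of 0.79 (SE 0.13, limma adjusted p = 6.18e-07). MRPL33 went from 50.5, 35.2 and 32.7 to 63.5, 68.2 and 67.7, a log2 fold change of 0.76 (SE 0.17, limma adjusted p = 0.00016). Thus MRPL33 was higher with 800 nM C16 and lower after PKR siRNA 2, each time without overlap with its controls. MRPS2, of the small subunit, was at 35.3 ± 6.42 in DMSO and 58.9 ± 6.43 at 800 nM (SD, n = 3 each; log2 fold change 0.73, limma adjusted p = 0.000731). MRPL21 was at 52 ± 13.4 and 84.1 ± 12.1 (SD, n = 3 each; log2 fold change 0.71, limma adjusted p = 0.000229). Both were above every DMSO library at 800 nM.

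With 400 nM C16, 8 members rose and 9 fell at a limma adjusted p under 0.05, where 14.6% and 11.9% of all genes tested did. With the fold threshold added, 1 rose, MRPS25, and 4 fell, MRPL53, MRPS36, MRPS28 and MRPL24, beside 7.08% and 5.45% of all genes. The median log2 fold change was -0.06 for the members and 0.00 for all genes. All 3 libraries lay above DMSO for 7 members and below it for 15, where 20.4% and 19.1% of all genes did. MRPS36, which carries a ribosomal name but belongs to the oxoglutarate dehydrogenase complex, had 45.7, 37.1 and 28.2 in DMSO, 16, 26.5 and 20.2 at 400 nM and 22.2, 31.7 and 36.3 at 800 nM. Its log2 fold change was -0.80 (SE 0.23, limma adjusted p = 0.00686) at 400 nM, while at 800 nM it was -0.29 (limma adjusted p = 0.312) and the groups overlapped. MRPS28, related to a bacterial mRNA-binding protein, had 21.4, 27.6 and 35 in DMSO, 16, 18.5 and 14.9 at 400 nM and 26.2, 24.4 and 12.4 at 800 nM, a log2 fold change of -0.71 (SE 0.27, limma adjusted p = 0.0383) at 400 nM. The MRPS36 call at 400 nM was lost without DMSO library 1 (-0.64) or C16 400 nM library 1 (-0.63). With DESeq2 (-0.84) the call was lost too. The MRPS28 call at 400 nM was lost without DMSO library 2 (-0.71), DMSO library 3 (-0.54), C16 400 nM library 1 (-0.70) or C16 400 nM library 3 (-0.65). With no filter on low values (-0.71), DESeq2 (-0.80) or the length trend removed (-0.60) the call was lost too. The counts changed when 1 library was left out: 3 members rose without DMSO library 2 and 3 fell without 400 nM library 1.

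Between the doses, 9 members were higher and 4 lower at 800 than at 400 nM at a limma adjusted p under 0.05, beside 5.09% and 9.18% of all genes tested. MRPL19 alone passed the fold threshold too, upward, where 1.13% of all genes were higher and 3.95% lower. MRPL19 had 89.4, 75.2 and 72.3 in DMSO, 63.8, 57.7 and 61.7 at 400 nM and 105, 87.7 and 92.6 at 800 nM, so the 400 nM libraries lay below both other groups. The log2 difference of MRPL19 between the doses was 0.63 (SE 0.14, limma adjusted p = 0.000815). MRPL42 had a like order, 81.6, 97.1 and 73.9 in DMSO, 71.3, 61.1 and 67 at 400 nM and 107, 93.8 and 93.5 at 800 nM, a log2 difference of 0.55 (SE 0.13, limma adjusted p = 0.00269). MRPL12 fell by 0.43 on the log2 scale (limma adjusted p = 0.00725) and MRPL24 by 0.58 (limma adjusted p = 0.0468) from 400 to 800 nM. The MRPL12 call between the doses was lost with DESeq2 (-0.41). The MRPL24 call between the doses was lost without DMSO library 2 (-0.58), DMSO library 3 (-0.58), C16 400 nM library 1 (-0.61), C16 400 nM library 2 (-0.53), C16 400 nM library 3 (-0.61) or C16 800 nM library 1 (-0.17). With no filter on low values (-0.58), median-of-ratios rescaling (-0.56), scaling to the total reads (-0.55), only the compared groups in the fit (-0.58), edgeR (-0.50) or DESeq2 (-0.49) the call was lost too. Without 400 nM library 2, 1 member was lower at 800 nM, and without 800 nM library 2, 5 were higher. Both dose comparisons share the DMSO libraries.

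**Figure D3:**
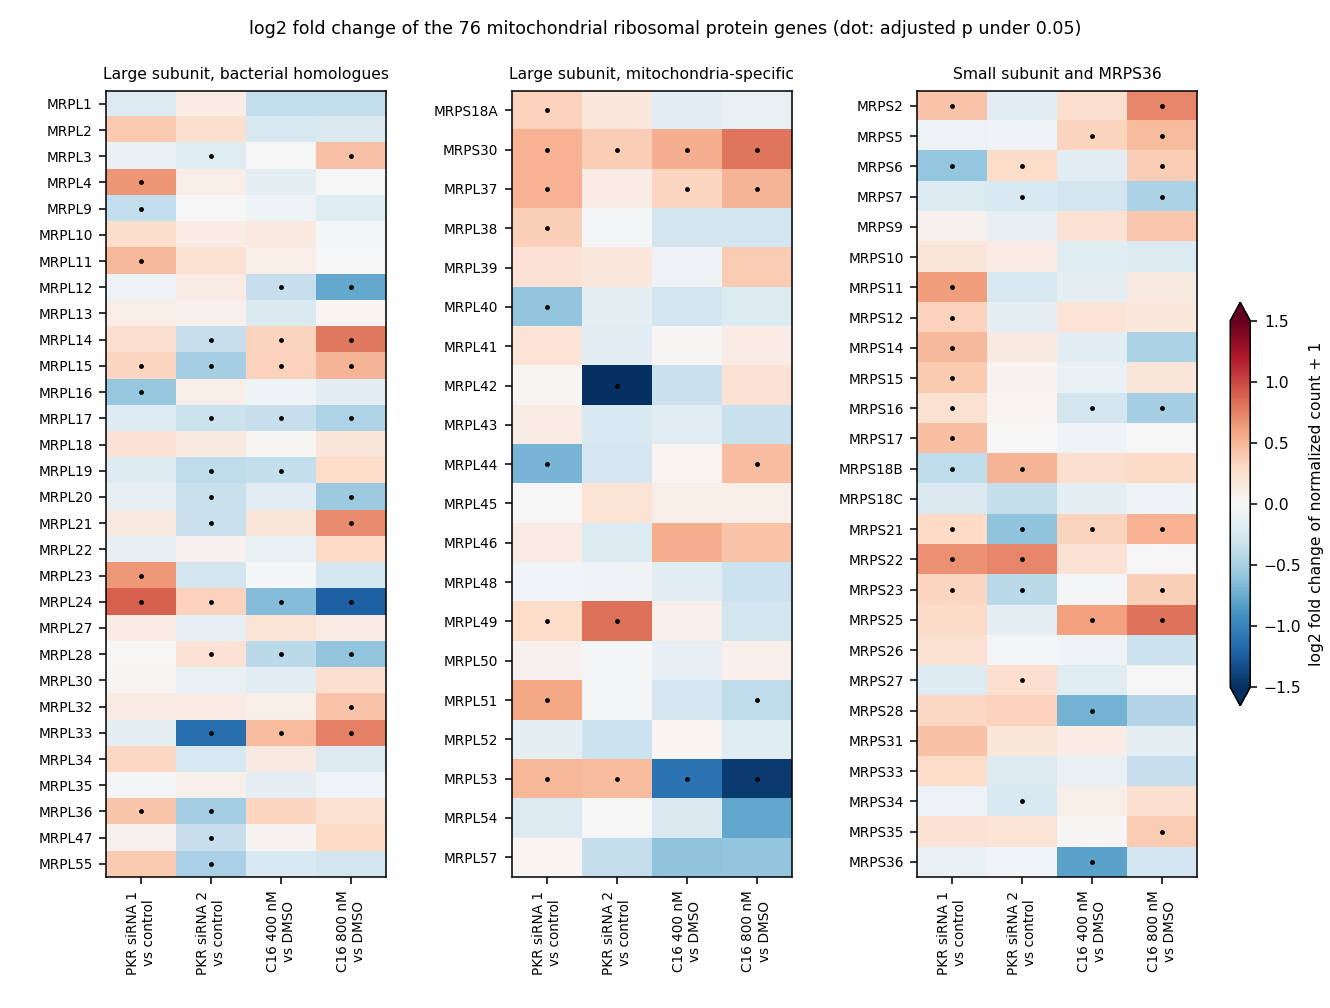
Log2 fold change (colour, saturated at 1.5 in either direction) of each of the 76 members (rows, by subunit and class) in the 4 treatments against their controls (columns); a dot marks an adjusted p under 0.05. MRPS30 is red with a dot in all 4 columns, and MRPL24 and MRPL53 are red in the siRNA columns and blue in the C16 columns.

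MRPS30 was the 1 member higher after PKR siRNA 1, PKR siRNA 2 and 800 nM C16, each past the test, and 0 members were lower in all 3, where 1.75% of the 9821 genes tested in both tables were higher and 1.98% lower. MRPS30, also known as PDCD9 and placed in the large subunit despite its name, lies at chr5:44808925-44815516 (plus strand). It had 62.6, 60.2 and 67.3 normalized counts in the controls, 96.6, 84.4 and 92.6 after PKR siRNA 1 and 87.5, 83.6 and 76.2 after PKR siRNA 2. It had 56.4, 33.3 and 41.9 in DMSO, 70.2, 65.7 and 53.2 at 400 nM and 65.6, 85.3 and 76.3 at 800 nM C16. Every library with either siRNA and with 800 nM C16 was above its controls, while one 400 nM library lay below the highest DMSO library. The log2 fold changes were 0.52 (SE 0.13, limma adjusted p = 0.000854) after PKR siRNA 1, 0.37 (SE 0.13, limma adjusted p = 0.0162) after PKR siRNA 2, 0.80 (SE 0.17, limma adjusted p = 6.36e-05) at 800 nM and 0.54 (SE 0.17, limma adjusted p = 0.0111) at 400 nM. The MRPS30 call after PKR siRNA 2 was lost without control siRNA library 2 (0.34) or PKR siRNA 2 library 1 (0.33). With DESeq2 (0.40) the call was lost too. The MRPS30 call at 400 nM was lost without DMSO library 2 (0.36) or C16 400 nM library 1 (0.45). With DESeq2 (0.51) the call was lost too. Higher with both siRNAs were 5 members (6.58%), MRPL24, MRPL49, MRPL53, MRPS22 and MRPS30, and 0 were lower with both. The share of all genes with this pattern was not counted. The MRPL49 call after PKR siRNA 1 (0.27) was lost with DESeq2, with the length trend removed and without some single libraries. Of these members, MRPL24 and MRPL53 were higher with both siRNAs and lower with 800 nM C16, as 1.81% of the genes tested in both tables were. MRPL24 was at 83.6, 99.7 and 73.4 after PKR siRNA 2, a log2 fold change of 0.35 (SE 0.13, limma adjusted p = 0.0261) beside 0.90 after PKR siRNA 1, and overlapped its controls there. The MRPL24 call after PKR siRNA 2 was lost without control siRNA library 1 (0.24), control siRNA library 2 (0.29) or PKR siRNA 2 library 2 (0.23). With DESeq2 (0.35) the call was lost too. MRPL53 had 56.5, 53.7 and 46.5 in the controls, 70, 73.5 and 78.2 after PKR siRNA 1 and 64.7, 69.7 and 83.7 after PKR siRNA 2, log2 fold changes of 0.50 and 0.47 (limma adjusted p = 0.00385 and 0.0063), without overlap. The MRPL53 call after PKR siRNA 2 was lost without PKR siRNA 2 library 3 (0.36). The levels of MRPL24 and MRPL53 with siRNA and with C16 come from different runs and tables, and the difference between the tables was not tested.

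Over the 4 comparisons with a control, 50 members passed the test in at least 1, and 26 in none. Those that passed in at least 1 were 65.8% of the members, beside 80.9% of the 9821 genes tested in both tables. Summed over the 76 members, normalized counts were 7932, 7818 and 7900 in the controls, 8740, 8910 and 8637 after PKR siRNA 1 and 7602, 7627 and 7779 after PKR siRNA 2. The sum after PKR siRNA 1 was 1.11 times and after PKR siRNA 2 0.973 times that of the controls, and the groups did not overlap. In the C16 table the sums were 5621, 5330 and 5300 in DMSO, 5187, 5498 and 5297 at 400 nM and 5509, 5731 and 5764 at 800 nM. These sums overlapped between DMSO and either dose. The members took 0.456 ± 0.00404% of all normalized counts in the controls, 0.518 ± 0.00721% after PKR siRNA 1 and 0.443 ± 0.00404% after PKR siRNA 2, and 0.485 ± 0.0168%, 0.476 ± 0.0107% and 0.52 ± 0.00896% in DMSO, 400 nM and 800 nM C16 (SD, n = 3 each). Unlike the sums, the shares at 800 nM, 0.51 to 0.526%, lay above those in DMSO, 0.472 to 0.504%. The ratio of the summed large to the summed small subunit was 1.61 ± 0.0404, 1.58 ± 0.0311 and 1.58 ± 0.0486 in the siRNA groups and 1.61 ± 0.0179, 1.52 ± 0.0901 and 1.52 ± 0.0379 in the C16 groups (SD, n = 3 each). With 800 nM C16 the 3 ratios, 1.476 to 1.546, lay below the 3 in DMSO, 1.598 to 1.633, and in the siRNA table the groups overlapped. Over the 2850 pairs of members, the median correlation of log2 levels across the 9 libraries was 0.11 for the siRNA libraries and 0.04 for the C16 libraries. This describes libraries that share groups and depth. Counting error lowers such correlations and pairs of other genes were not computed, so the values cannot show whether the members moved together.

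**Figure D4:**
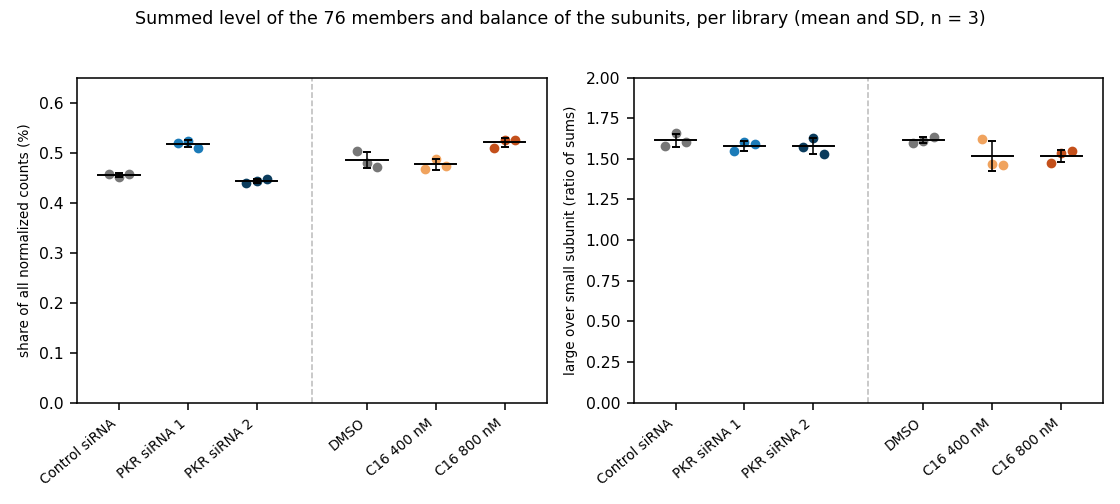
Left, the share of all normalized counts (percent) taken by the 76 members; right, the ratio of the summed large-subunit to the summed small-subunit counts; one point per library with the mean and SD of 3 in each of the 6 groups, both axes from 0. The PKR siRNA 1 libraries lie at 0.51 to 0.524%, above the control siRNA libraries, and the 800 nM C16 ratios lie below those in DMSO.

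Mitochondrial ribosome proteins that carry other names were read beside the members. DAP3, a GTP-binding protein of the small subunit, was at 285 ± 17.4 in the controls and rose to 366 ± 12.5 after PKR siRNA 1 (SD, n = 3 each), and this log2 fold change was 0.36 (SE 0.08, limma adjusted p = 0.000128), and after PKR siRNA 2 its log2 fold change was -0.02. PTCD3, an RNA-binding protein of the small subunit, fell with both siRNAs, by 0.42 and by 0.26 on the log2 scale (limma adjusted p = 0.000829 and 0.037). AURKAIP1, of the small subunit, had 309, 313 and 309 in the controls, 394, 335 and 339 after PKR siRNA 1 and 186, 223 and 209 after PKR siRNA 2. Its log2 fold change was 0.19 (SE 0.08, limma adjusted p = 0.0423) after PKR siRNA 1 and -0.59 (SE 0.08, limma adjusted p = 1.95e-09) after PKR siRNA 2, and -0.43 (SE 0.09, limma adjusted p = 0.000126) with 800 nM C16. GADD45GIP1, a protein of the large subunit at the exit tunnel, went from 104, 80 and 95.9 in DMSO to 57.5, 50 and 51.5 at 800 nM C16, a log2 fold change of -0.80 (SE 0.14, limma adjusted p = 4.15e-06), and rose after PKR siRNA 2 (0.32, limma adjusted p = 0.0177). CHCHD1 and ICT1 passed the test in none of the 4 comparisons with a control, with log2 fold changes of 0.04, -0.28, 0.27 and 0.30 for CHCHD1 and 0.03, -0.06, -0.20 and -0.25 for ICT1 after PKR siRNA 1, PKR siRNA 2, 400 nM and 800 nM C16. The PTCD3 call after PKR siRNA 2 was lost with no filter on low values (-0.26), with DESeq2 (-0.25), with the length trend removed (-0.25), without control siRNA library 1 (-0.27), without control siRNA library 3 (-0.19), without PKR siRNA 2 library 1 (-0.24) and without PKR siRNA 2 library 2 (-0.24). The AURKAIP1 call after PKR siRNA 1 was lost with no filter on low values (0.19), with DESeq2 (0.21), with the length trend removed (0.09), without control siRNA library 1 (0.19), without control siRNA library 2 (0.20), without control siRNA library 3 (0.19) and without PKR siRNA 1 library 1 (0.12). The GADD45GIP1 call after PKR siRNA 2 was lost with DESeq2 (0.34), without control siRNA library 1 (0.26) and without PKR siRNA 2 library 3 (0.28).

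Nuclear-encoded subunits of the respiratory chain, the machinery that holds the products of mitochondrial translation, were counted in the same fits. Of these genes, 26 of 75 rose and 6 fell after PKR siRNA 1 (median log2 fold change 0.16), 10 of 75 rose and 20 fell after PKR siRNA 2 (median log2 fold change -0.02) and 19 of 75 rose and 14 fell with 800 nM C16 (median log2 fold change 0.05). At 400 nM, 6 of 75 rose and 9 fell with C16 (median log2 fold change -0.01). With PKR siRNA 1 these counts were 34.7% and 8% of the list, beside 21.1% and 23.9% of all genes tested. After PKR siRNA 2 they were 13.3% and 26.7%, beside 22.1% and 25.2%. With 800 nM C16 they were 25.3% and 18.7%, beside 22.3% and 22.6%, and at 400 nM 8.0% and 12.0%, beside 14.6% and 11.9%. Past both thresholds after PKR siRNA 1 were NDUFV2 (-1.34), NDUFV3 (0.67), NDUFS1 (-0.65) and NDUFA5 (0.62), and after PKR siRNA 2 SDHD (-1.68) and COX8A (-0.64) (log2 fold changes; NDUF genes encode subunits of complex I, SDHD of complex II, COX genes of complex IV). At 800 nM C16 these were NDUFB1 (-0.87), NDUFA7 (-0.78), ATP5G2 (-0.70), NDUFB5 (-0.69) and NDUFS8 (-0.69), and at 400 nM NDUFC2 (-0.91), NDUFA7 (-0.69), NDUFB5 (-0.69) and NDUFS8 (-0.63), with ATP5G2 a subunit of ATP synthase. Between the siRNAs, 37 were lower and 7 higher after PKR siRNA 2, or 49.3% and 9.33%, beside 29.3% and 27.7% of all genes tested. Fold changes after PKR siRNA 1 and between the siRNAs followed gene length, as given above. The counts of this list and of the lists below were made without removing that trend, and the part of length in them was not tested. The largest of these differences were those of SDHD (-1.62), NDUFV2 (1.07), COX8A (-0.89), NDUFA7 (-0.88) and COX6C (-0.78). The NDUFA7 call at 800 nM was lost with DESeq2 (-0.81), with the length trend removed (-0.68) and without C16 800 nM library 3 (-0.66). The NDUFA7 call at 400 nM was lost with no filter on low values (-0.69), a replicate block (-0.69), DESeq2 (-0.73) and the length trend removed (-0.57). Without any 1 of the 6 libraries compared it was lost as well, at -0.73 to -0.64. The mRNAs and rRNAs of mitochondrial DNA were not analysed here.

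Proteins of the cytosolic ribosome, which makes the mitochondrial ribosomal proteins, were counted in the same way. Of 84 such genes tested, 10 rose and 20 fell after PKR siRNA 1, 28 rose and 12 fell after PKR siRNA 2, 1 rose and 36 fell at 400 nM C16, and 6 rose and 41 fell at 800 nM. In the same order, 21.1% and 23.9%, 22.1% and 25.2%, 14.6% and 11.9%, and 22.3% and 22.6% of all genes tested did. Of the 84 genes the shares were 11.9% and 23.8%, 33.3% and 14.3%, 1.19% and 42.9%, and 7.14% and 48.8%. Their median log2 fold changes were -0.04, 0.04, -0.15 and -0.16, beside 0.16, -0.03, -0.06 and 0.00 for the mitochondrial ribosomal protein genes, and the difference between the lists was not tested. Past both thresholds were RPS27L (1.87), RPL27 (-0.94), RPL5 (-0.87), RPS10 (-0.87) and RPS3 (-0.61) after PKR siRNA 1 and RPS27L (1.52), RPL39L (-1.20), RPL14 (-0.90), RPL26L1 (-0.83) and RPS12 (0.73) after PKR siRNA 2, and RPS27L is a known p53 target. With C16 they included RPS27L (-1.20), RPL22L1 (0.97), RPL26L1 (0.79) and RPS27 (-0.69) at 800 nM and RPS27L (-1.11) and RPL26L1 (0.69) at 400 nM, and between the siRNAs RPL39L (-1.41), RPL26L1 (-1.24), RPL14 (-0.97), RPL5 (0.90) and RPL27 (0.83). Cytosolic ribosomal proteins have many processed pseudogenes, so their counts are uncertain.

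Among mitochondrial translation factors, 5 of 17 rose and 2 fell after PKR siRNA 1 (median log2 fold change 0.37), 2 of 17 rose and 2 fell after PKR siRNA 2 (median log2 fold change 0.00), 5 of 16 rose and 1 fell with 400 nM C16 (median log2 fold change -0.06) and 7 of 16 rose and 2 fell with 800 nM C16 (median log2 fold change 0.28). In the same order, 21.1% and 23.9%, 22.1% and 25.2%, 14.6% and 11.9%, and 22.3% and 22.6% of all genes tested did. Of the list the shares were 29.4% and 11.8%, 11.8% and 11.8%, 31.2% and 6.25%, and 43.8% and 12.5%. Past both thresholds after PKR siRNA 1 were GUF1 (-1.12), MTIF3 (0.87) and MTRF1L (-0.85), encoding an elongation factor that acts on stalled ribosomes, an initiation factor and a release factor. With 800 nM C16 these were GUF1 (0.96), GFM1 (0.89), MTIF3 (-0.85), OXA1L (-0.82) and LRPPRC (0.61), with GFM1 the elongation factor for translocation, OXA1L the insertase and LRPPRC a stabiliser of mitochondrial mRNA. At 400 nM they were MTIF3 (-1.06) and GUF1 (0.59), and between the siRNAs GUF1 (1.16), GFM1 (-0.95), MTRF1L (0.85) and SLIRP (-0.59). The MTIF3 call at 800 nM was lost with DESeq2 (-0.89), without DMSO library 2 (-0.75) and without C16 800 nM library 3 (-0.68). The MTIF3 call at 400 nM was lost with DESeq2 (-1.02) and without C16 400 nM library 3 (-0.67). The GUF1 call at 400 nM was lost with DESeq2 (0.59), without DMSO library 2 (0.39) and without C16 400 nM library 3 (0.39).

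Of the factors for ribosome assembly and rRNA modification, 7 of 26 rose and 1 fell after PKR siRNA 1 (median log2 fold change 0.13), 4 of 26 rose and 4 fell after PKR siRNA 2 (median log2 fold change 0.05), 2 of 24 rose and 2 fell with 400 nM C16 (median log2 fold change 0.04) and 4 of 24 rose and 2 fell with 800 nM C16 (median log2 fold change 0.07). In the same order, 21.1% and 23.9%, 22.1% and 25.2%, 14.6% and 11.9%, and 22.3% and 22.6% of all genes tested did. Of the list the shares were 26.9% and 3.85%, 15.4% and 15.4%, 8.33% and 8.33%, and 16.7% and 8.33%. With PKR siRNA 1 the largest were MRM1 (0.89), RNMTL1 (0.81), TFB1M (0.71), RBFA (0.68) and METTL15 (-0.64), several of them rRNA methyltransferases, and after PKR siRNA 2 METTL15 (-0.89), DDX28 (0.79) and FASTKD2 (-0.66). With C16 they were MRM1 (0.90), TRUB2 (-0.77) and MTERF4 (-0.73) at 800 nM and MRM1 (0.90) and GTPBP10 (-0.68) at 400 nM, and between the siRNAs MRM1 (-1.09), RNMTL1 (-0.87), FASTKD2 (-0.84), TFB1M (-0.78) and RBFA (-0.61). The MRM1 call after PKR siRNA 1 was lost without PKR siRNA 1 library 2 (0.72). The METTL15 call after PKR siRNA 1 was lost with no filter on low values (-0.64), with DESeq2 (-0.65), without control siRNA library 3 (-0.59), without PKR siRNA 1 library 1 (-0.62) and without PKR siRNA 1 library 3 (-0.59). The DDX28 call after PKR siRNA 2 was lost with no filter on low values (0.79), with DESeq2 (0.87), without control siRNA library 1 (0.70), without control siRNA library 2 (0.81), without PKR siRNA 2 library 1 (0.71) and without PKR siRNA 2 library 2 (0.74). The MRM1 call at 800 nM was lost without C16 800 nM library 3 (0.79). The TRUB2 call at 800 nM was lost with DESeq2 (-0.75), without DMSO library 1 (-0.68) and without C16 800 nM library 2 (-0.55). The MRM1 call at 400 nM was lost with DESeq2 (0.95), without DMSO library 3 (0.78), without C16 400 nM library 1 (0.84) and without C16 400 nM library 2 (0.86). The GTPBP10 call at 400 nM was lost with no filter on low values (-0.68), with edgeR (-0.65), with DESeq2 (-0.66), without DMSO library 1 (-0.66), without DMSO library 2 (-0.62), without C16 400 nM library 1 (-0.52) and without C16 400 nM library 3 (-0.52).

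Of the mitochondrial transcription factors and nuclear regulators, 6 of 16 rose and 0 fell after PKR siRNA 1 (median log2 fold change 0.27), 3 of 16 rose and 1 fell after PKR siRNA 2 (median log2 fold change 0.00), 3 of 16 rose and 0 fell with 400 nM C16 (median log2 fold change -0.02) and 5 of 16 rose and 3 fell with 800 nM C16 (median log2 fold change 0.12). In the same order, 21.1% and 23.9%, 22.1% and 25.2%, 14.6% and 11.9%, and 22.3% and 22.6% of all genes tested did. Of the list the shares were 37.5% and 0.0%, 18.8% and 6.25%, 18.8% and 0.0%, and 31.2% and 18.8%. With PKR siRNA 1 these included MYC (1.04) and TEFM (0.73), after PKR siRNA 2 C10orf2 (0.70), with 400 nM C16 PPARGC1B (1.15), and between the siRNAs ESRRA (-1.07) and MTERF1 (-0.64). With 800 nM C16 they were PPARGC1B (1.06), NRF1 (-0.93), TFAM (0.67), ESRRA (0.65) and GABPB1 (-0.63). NRF1 had 18.5, 17.1 and 27.4 normalized counts in DMSO and 19.2, 3.66 and 14.3 at 800 nM, so library 2 stood far below the others and the groups overlapped. The NRF1 call at 800 nM was lost with DESeq2 (-0.74), without DMSO library 3 (-0.74) and without C16 800 nM library 2 (-0.30). The GABPB1 call at 800 nM was lost with DESeq2 (-0.63), without DMSO library 2 (-0.52) and without C16 800 nM library 2 (-0.47). The TEFM call after PKR siRNA 1 was lost with DESeq2 (0.68) and without control siRNA library 2 (0.44). The MTERF1 call between the siRNAs was lost with no filter on low values (-0.64), with DESeq2 (-0.67), without PKR siRNA 1 library 3 (-0.51) and without PKR siRNA 2 library 3 (-0.52). MYC was above every control after PKR siRNA 2 as well, though not past both thresholds there. It had 138.6, 125.7 and 138.4 normalized counts in the controls and 197.9, 205.9 and 190.0 after PKR siRNA 2. MYC is a transcription factor known to act on genes of mitochondrial proteins, and TFAM packages mitochondrial DNA and takes part in starting its transcription.

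Promoters of the members were searched for letters of factors known at such genes. RefSeq promoters, 250 bases before to 50 after the start, were found for 67 of the 76 members, and both strands were read. The ETS-family letters CCGGAAG were in 28 (41.8%), beside 21.4% of the promoters of 8200 genes tested and 10.7% of all 27305 promoters. The YY1 letters AAGATGGCG were in 12 (17.9%), beside 4.66% of tested and 1.85% of all promoters, and the NRF1 letters GCATGCGC in 6 (8.96%), beside 6.01% and 3.27%. The ETS letters end with the 3 letters with which the YY1 letters begin, 4 promoters held both, and in 0 of them did they overlap in this way. These are matches of letters and not binding sites.

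Exons of 13 members share bases with another listed gene. The largest shares were those of MRPS18C with FAM175A on the opposite strand (60.2%), MRPL43 with SEMA4G (25.2%, opposite), MRPS6 with SLC5A3 (22.5%, same strand), MRPL20 with LOC148413 (20.6%, opposite), MRPS25 with NR2C2 (16.8%, opposite), MRPL9 with OAZ3 (15.6%, opposite) and MRPS12 with SARS2 (14.3%, opposite). The kit was directional, but whether counting used strand is not given in the sources used here, so reads of such pairs may be shared or dropped. MRPS24 shares 87.1% of its exon bases with the read-through gene URGCP-MRPS24, which was at 0 in all libraries.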

How the data were processed

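Poly(A) RNA of 18 PANC-1 libraries was read. Per the study's methods and processing notes, the authors aligned reads to hg38 with TopHat, counted reads per gene with featureCounts, and normalized each run by TMM in TCC. The deposited values are this normalized signal, one table per run. The annotation release and the use of strand in counting are not given in the sources used here. Values were whole multiples of 1 read in 100.0% of cases (tolerance 0.01), so reads were recovered for count-based alternatives. No per-sample column was left unmapped.

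Genes with a mean of at least 10 in a table were tested with limma 3.58.1 (R 4.3.3, trend) on log2(normalized count + 1), over all 9 libraries of the table, two-sided, with Benjamini-Hochberg adjustment over all genes. This means that low genes have understated fold changes. The fit was tested on simulated data. Alternatives were other pseudocounts, minimum means and scalings, edgeR 4.0.16, DESeq2 1.42.0, a replicate block, only the groups compared, removal of the length trend, and each library left out. Named members were those past an adjusted p of 0.05 and a fold of 1.5 (at most 8 per comparison and direction), those that passed in the same direction with both siRNAs and 800 nM C16 or in opposite directions, and the 3 highest and lowest per kb. Of the other lists, at most 5 genes past both thresholds were named per comparison, and 1 of these is not reported here. Members and lists were chosen with earlier results of these data known.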

Additional observations from a re-analysis of the deposited data

Results flagged for a closer look

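In 6 members the fold changes with PKR siRNA 1 and PKR siRNA 2 passed the test in opposite directions. The difference between the siRNAs, a limma contrast over all genes, adds both effects in such members. Its passing followed from how the members were chosen and is no further evidence. Over all genes tested, 3.96% were higher after siRNA 1 and lower after siRNA 2, and 4.61% the reverse, beside 5.26% and 2.63% of the members. MRPS21 was lower with PKR siRNA 2 than with PKR siRNA 1, with a log2 difference of -0.89 (SE 0.11, limma adjusted p = 1.33e-11). The log2 difference of MRPL36 was -0.94 (SE 0.17, limma adjusted p = 1.19e-06). The log2 difference of MRPL15 was -0.82 (SE 0.1, limma adjusted p = 6.78e-11). The log2 difference of MRPS23 was -0.72 (SE 0.11, limma adjusted p = 1e-08). The log2 difference of MRPS18B was 0.89 (SE 0.13, limma adjusted p = 4.51e-09). The log2 difference of MRPS6 was 0.86 (SE 0.11, limma adjusted p = 2.35e-10). MRPS6 shares exon bases with SLC5A3, whose log2 difference between the siRNAs was 1.52 (limma adjusted p = 5.8e-25), and the part of SLC5A3 reads in the MRPS6 value was not tested. The opposite directions against the shared control libraries lost a call in MRPL15, MRPL36, MRPS18B, MRPS21, MRPS23 and MRPS6 when a single library was left out.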

How the results depend on the processing

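Of 600 recomputed counts and medians of the members, 518 stayed within 1.5 times the reported count or within the replicate spread of the reported median. Of 1916 recomputed values of named genes, 1728 kept their direction and their side of the threshold and 188 kept their direction but no longer passed, and 0 changed direction. The fall of MRPL42 with PKR siRNA 2 passed the test under every alternative. With a pseudocount of 5, the number past both thresholds, lower, was 1 for PKR siRNA 1 against control, and the number past both thresholds, higher, was 0 for 400 nM C16 against DMSO. With median-of-ratios rescaling, the number past both thresholds, lower, was 1 for PKR siRNA 1 against control. With scaling to the total reads on genes, the number past both thresholds, lower, was 1 for PKR siRNA 1 against control, and the median log2 fold change was 0.19 for PKR siRNA 1 against control and -0.21 for PKR siRNA 2 against 1, and the number past the test, lower, was 2 for 800 against 400 nM C16, and the number past both thresholds, higher, was 2 for 800 against 400 nM C16. With edgeR's quasi-likelihood test, the median log2 fold change was 0.17 for PKR siRNA 1 against control and -0.01 for PKR siRNA 2 against control, and the number past the test, lower, was 1 for 800 against 400 nM C16. With DESeq2, the number past the test, higher, was 14 for PKR siRNA 1 against control, 4 for PKR siRNA 2 against control, 6 for PKR siRNA 2 against 1, 1 for 400 nM C16 against DMSO and 3 for 800 against 400 nM C16, and the median log2 fold change was 0.17 for PKR siRNA 1 against control and -0.01 for PKR siRNA 2 against control, and the number past the test, lower, was 6 for PKR siRNA 2 against control, 3 for 400 nM C16 against DMSO and 0 for 800 against 400 nM C16, and the number past both thresholds, lower, was 2 for 400 nM C16 against DMSO. With the length trend removed, the number past both thresholds, higher, was 2 for PKR siRNA 1 against control, 5 for PKR siRNA 2 against 1 and 4 for 400 nM C16 against DMSO, and the number past both thresholds, lower, was 4 for PKR siRNA 1 against control, 2 for 400 nM C16 against DMSO and 1 for 800 against 400 nM C16, and the median log2 fold change was 0.08 for PKR siRNA 1 against control, -0.01 for PKR siRNA 2 against control, -0.09 for PKR siRNA 2 against 1, 0.06 for 800 nM C16 against DMSO and 0.01 for 400 nM C16 against DMSO. With a minimum mean of 30, the median log2 fold change was -0.16 for PKR siRNA 2 against 1 and 0.11 for 800 nM C16 against DMSO, and the number past both thresholds, lower, was 2 for 400 nM C16 against DMSO. With a pseudocount of 0.5, the number past both thresholds, lower, was 1 for 800 against 400 nM C16. Leaving out 1 library at a time, the median log2 fold change ranged from 0.14 to 0.20 for PKR siRNA 1 against control, -0.07 to -0.02 for PKR siRNA 2 against control, -0.19 to -0.17 for PKR siRNA 2 against 1, -0.07 to 0.06 for 800 nM C16 against DMSO and 0.02 to 0.11 for 800 against 400 nM C16. Leaving out 1 library at a time, the number past both thresholds, higher, ranged from 3 to 7 for PKR siRNA 1 against control, 0 to 3 for 400 nM C16 against DMSO and 1 to 2 for 800 against 400 nM C16. Leaving out 1 library at a time, the number past the test, lower, ranged from 8 to 16 for PKR siRNA 2 against control, 3 to 9 for 400 nM C16 against DMSO and 1 to 4 for 800 against 400 nM C16. Leaving out 1 library at a time, the number past the test, higher, ranged from 5 to 9 for PKR siRNA 2 against control, 6 to 10 for PKR siRNA 2 against 1, 3 to 9 for 400 nM C16 against DMSO and 5 to 9 for 800 against 400 nM C16. Leaving out 1 library at a time, the number past both thresholds, lower, ranged from 2 to 5 for PKR siRNA 2 against control, 2 to 4 for 400 nM C16 against DMSO and 0 to 1 for 800 against 400 nM C16. The cause of these shifts was not tested, except that a higher minimum mean and a left-out library leave fewer genes or libraries. DESeq2 also passed fewer of all genes tested. With siRNA 1, 1627 genes rose in place of 2240. With siRNA 2, 1821 rose in place of 2344, while 1936 fell in place of 2669. Between the siRNAs, 2431 were higher in place of 2932. At 400 nM C16, 803 rose in place of 1458, while 737 fell in place of 1187. From 400 to 800 nM, 192 rose in place of 507, while 323 fell in place of 915. Whether members lost calls more often than other genes was not tested. Library numbers did not pair the libraries, with correlations of same-numbered deviations from -0.05 to 0.03. With a replicate block 23 members were higher after PKR siRNA 1 and 8 after PKR siRNA 2, and the block moved no count by over 1.5 times. Depth limited the members near the minimum: in a library with 894145 reads on genes a member at the minimum rested on few reads, and small changes there were not detectable.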
